A study of Mus musculus with 6 samples.

Results

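The prostate lineage and epithelial state of TRAMP-C2 cells was described through 8 of the 54446 genes in the table, namely Foxa1, Fkbp5, Krt8, Krt18, Krt5, Cdh1, Cdh2 and Vim. They were chosen by name as androgen-linked, prostate, keratin and cadherin genes and mapped from their gene identifiers to GENCODE release M21 symbols. Among them, 6 belonged to the 14956 genes that passed a filter on low counts, whereas Foxa1 and Krt5 did not pass it and were not tested. TRAMP-C2 is a mouse line from a prostate tumor of the TRAMP model, in which a viral oncogene is driven by the prostate-specific probasin promoter in C57BL/6 animals. It was analyzed by poly(A) RNA sequencing after 24 h without drug (control), with 2 µM oxaliplatin or with 2 µM cisplatin, and each of the 3 groups held 2 libraries. All groups grew in DMEM with fetal bovine serum, NuSerum IV, bovine insulin and the androgen precursor that the labels spell dehydroisoantrosterone, so the controls received serum and steroid too. Nothing in the labels says that the 2 libraries of a group came from separate cultures, and p values therefore measure the spread between these libraries, which may be technical.

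In the normal prostate gland, luminal cells carry keratins 8 and 18 and the cell adhesion molecule E-cadherin (Cdh1) and depend on androgens, whose signal works together with the pioneer factor FOXA1 and activates targets such as Fkbp5. Basal cells carry keratin 5, and stromal cells carry vimentin (Vim) and N-cadherin (Cdh2). In epithelial-mesenchymal transition, repressors of the ZEB and SNAI families bind E-box letters in epithelial promoters, E-cadherin and keratins are lost, and vimentin and N-cadherin are gained. Bulk RNA cannot tell fewer cells of a type from less RNA per cell, and this holds for every level given here.

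Several defining markers of prostate epithelium were absent from these cells, and no other cell type name is given to them here. Vim and Cdh2 were abundant, and Krt5 had 0 counts in all 6 libraries. Krt8, Krt18 and Cdh1 lay between, with 38.4, 47.6 and 48.1% of the tested genes lower per kb of exon. Under oxaliplatin Fkbp5 fell and Vim rose slightly, whereas under cisplatin Vim rose more and Cdh1 rose as well. The oxaliplatin call of Vim and the cisplatin call of Cdh1 were lost in some of the alternative fits given below. Cdh2 differed by at most 1.38% between any pair of groups. Total counts ran from 21345312 to 24041767 per library, so that 3 counts, the limit that a count of 0 allows, correspond to 0.125 to 0.141 CPM (counts relative to the library total), and this limit covers counting error only.

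The letters before the start sites are shown for Krt18, Krt5 and Foxa1. In these 3 members the E-box letters CACCTG or CAGGTG, which ZEB and SNAI factors can bind, lie before the RefSeq start and outside annotated exons. RefSeq windows of GRCm38.p6, from 250 bases before to 50 bases after the start, were found for 6 of the 8 members, all but Cdh1 and Cdh2. Of all 32851 windows of 300 bases, 20.2% held the E-box letters, read on both strands. Among the 6 members with a window 4 held them, Krt8 included. The Krt8 match, at position -111 from the RefSeq start, lies downstream of the first annotated exon base, so its letters are not shown. For Krt8, annotated exons cover 140 of the 250 bases before the RefSeq start. In the GENCODE M21 annotation, exons cover 36 of the 250 bases before the RefSeq start of Krt18, 10 for Foxa1 and 0 for Krt5, so for Krt18 and Foxa1 an annotated start lies upstream of the RefSeq one. The bases before the first such exon base are printed 5′ to 3′ on the gene's strand with the E-box in capitals. The Foxa1 stretch lies within the annotated span of its gene but outside annotated exons.
Krt18 (chr15:102027966-102028179, plus strand): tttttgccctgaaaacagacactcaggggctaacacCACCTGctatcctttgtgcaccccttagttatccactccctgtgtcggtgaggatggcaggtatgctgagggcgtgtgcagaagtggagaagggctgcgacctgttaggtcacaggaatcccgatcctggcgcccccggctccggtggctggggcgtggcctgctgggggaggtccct
Krt5 (chr15:101712906-101713155, minus strand): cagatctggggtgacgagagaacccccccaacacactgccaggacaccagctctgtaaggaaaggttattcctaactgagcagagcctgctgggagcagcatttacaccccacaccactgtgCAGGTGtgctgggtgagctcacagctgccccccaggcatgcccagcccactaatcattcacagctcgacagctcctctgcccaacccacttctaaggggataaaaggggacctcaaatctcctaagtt
Foxa1 (chr12:57546122-57546361, minus strand): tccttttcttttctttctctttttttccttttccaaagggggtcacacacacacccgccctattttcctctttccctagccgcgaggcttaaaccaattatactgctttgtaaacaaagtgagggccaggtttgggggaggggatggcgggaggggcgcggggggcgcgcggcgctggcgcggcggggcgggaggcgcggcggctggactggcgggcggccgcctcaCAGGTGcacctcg
The first base of the match lay at position -214 from the RefSeq start in Krt18, -128 in Krt5 and -23 in Foxa1. The windows of Vim and Fkbp5 held none of these letters. The half-site AGAACA or TGTTCT of steroid hormone receptors, also read on both strands, was found only in the Krt18 window, at base 26 after the start, and stood in 19.0% of all windows. The 2 motifs did not overlap. A match describes letters and is not a measured binding site, and its absence says nothing about a factor.

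Levels were set against each other as normalized counts per kb of merged exon. Over all libraries Vim had a level of 12837 per kb, which placed it 87th among the 14956 tested genes. Cdh2 followed with 876, Fkbp5 with 328, Cdh1 with 98.2, Krt18 with 95.7 and Krt8 with 60.3. Most neighbors in this order were separated in every library, but Cdh1 and Krt18 were not. In control libraries Cdh1 ran from 80.8 to 89.6 per kb and Krt18 from 85.7 to 90.3. Under cisplatin Cdh1 ran from 120 to 125 per kb, above the 94.7 to 118 of Krt18. Foxa1 reached at most 0.923 per kb in any library. When counts were divided by the mean transcript length instead, Fkbp5 and Cdh2 had nearly the same level, 1768 and 1770 per kb.

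**Figure D1:**
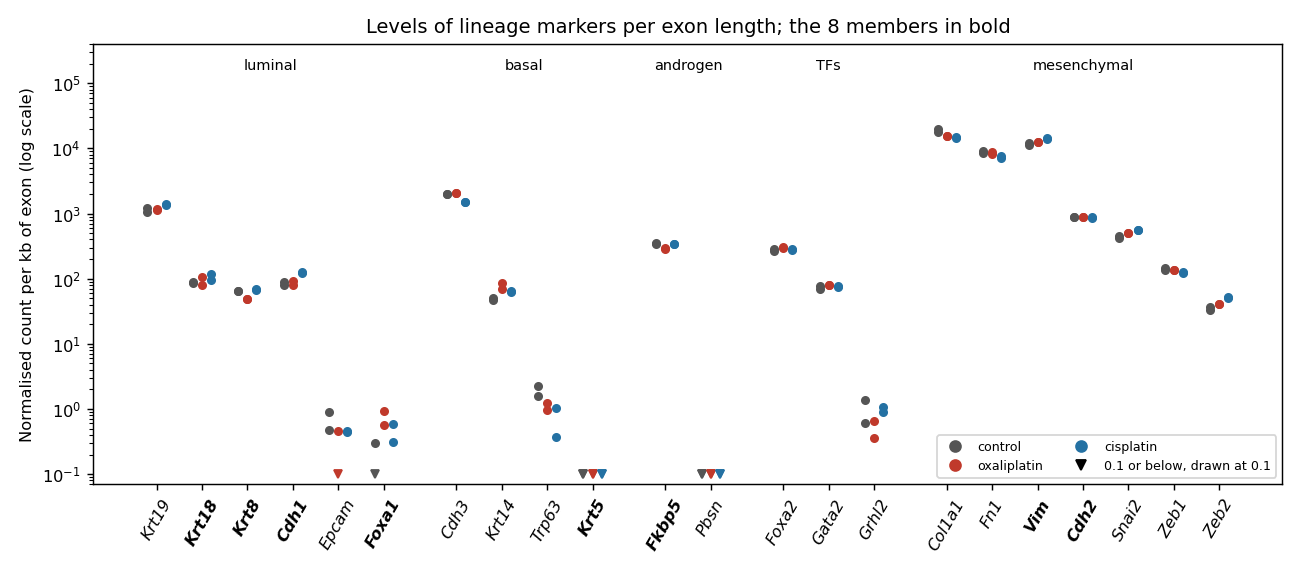
Normalized counts per kb of merged exon (y axis, log scale) for lineage markers in each library. Each point is 1 library of control, oxaliplatin or cisplatin cells, the names of members are in bold, and triangles stand for libraries at 0.1 or below. Vim, Col1a1 and Fn1 lie at the top, Krt8, Krt18 and Cdh1 near 100 per kb, and Krt5 and Pbsn at 0 in every library.

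Other defining genes of the lineages were partly absent too. Among luminal markers, Krt19 was the most abundant keratin with 1214 per kb, 10.7 to 14.7 times the level of Krt18 and 16.2 to 24.1 times that of Krt8 within a library. Epcam, a surface protein of simple epithelia, had 0 to 2 expected counts per library. Probasin (Pbsn), a prostate secretory protein and androgen target, had 0 counts in every library. Trp63, the master factor of basal cells, had 3.07 to 18.7 normalized counts, and the epithelial factor Grhl2 had 3.07 to 11.8. The collagen gene Col1a1 lay above Vim and fibronectin (Fn1) below it, with ranges over control libraries of 17962 to 19727 and 8595 to 9242 per kb beside 11152 to 12207 for Vim.

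Within the keratin, cadherin and FK506-binding protein families the members were not the most abundant genes. Of 53 protein-coding keratin genes 10 passed the filter and 21 had 0 counts in all libraries. Krt19 and Krt13 (177 per kb) stood above Krt18, and Krt14 (63.6 per kb) had a level near that of Krt8. Under oxaliplatin Krt14 was the higher of the pair, 78.2 beside 48.9 per kb, whereas it was the lower one in control (48.8 beside 64.3) and cisplatin cells (63.8 beside 67.8). Divided by mean transcript length, Krt14 was the higher one under cisplatin as well, 79.5 beside 67.8 per kb. Of 23 cadherin genes 9 passed, led by Cdh3, or P-cadherin, with 1858 per kb. Cdh3 was 1.71 to 2.39 times as high as Cdh2 and 12.0 to 25.7 times as high as Cdh1 within a library. With mean transcript length as divisor Cdh3 and Cdh2 had 1989 and 1766 per kb in control, 2086 and 1784 in oxaliplatin and 1498 and 1760 in cisplatin cells, so that Cdh2 was the higher one under cisplatin. Fkbp5 was far from the top of the 13 FK506-binding protein genes that passed, where Fkbp10 had 3572 per kb and Fkbp4, a related immunophilin of steroid receptors, had 2564. In the forkhead box A family Foxa2 alone passed, with 285 per kb. Genes in this paragraph were named for their rank after their values were seen.

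Foxa1 (ENSMUSG00000035451, chromosome 12, 57540628 to 57546916, GRCm38, minus strand) is the pioneer factor of luminal prostate cells. Its expected counts were 0 and 1 in control, 2 and 3 in oxaliplatin and 2 and 1 in cisplatin libraries. All values were at or under the limit of 3 counts, so no fold change is given and no difference between groups was detectable at this depth. Krt5 (ENSMUSG00000061527, chromosome 15, 101707070 to 101712898, minus strand), the basal keratin, had 0 expected counts in each of the 6 libraries.

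**Figure D2:**
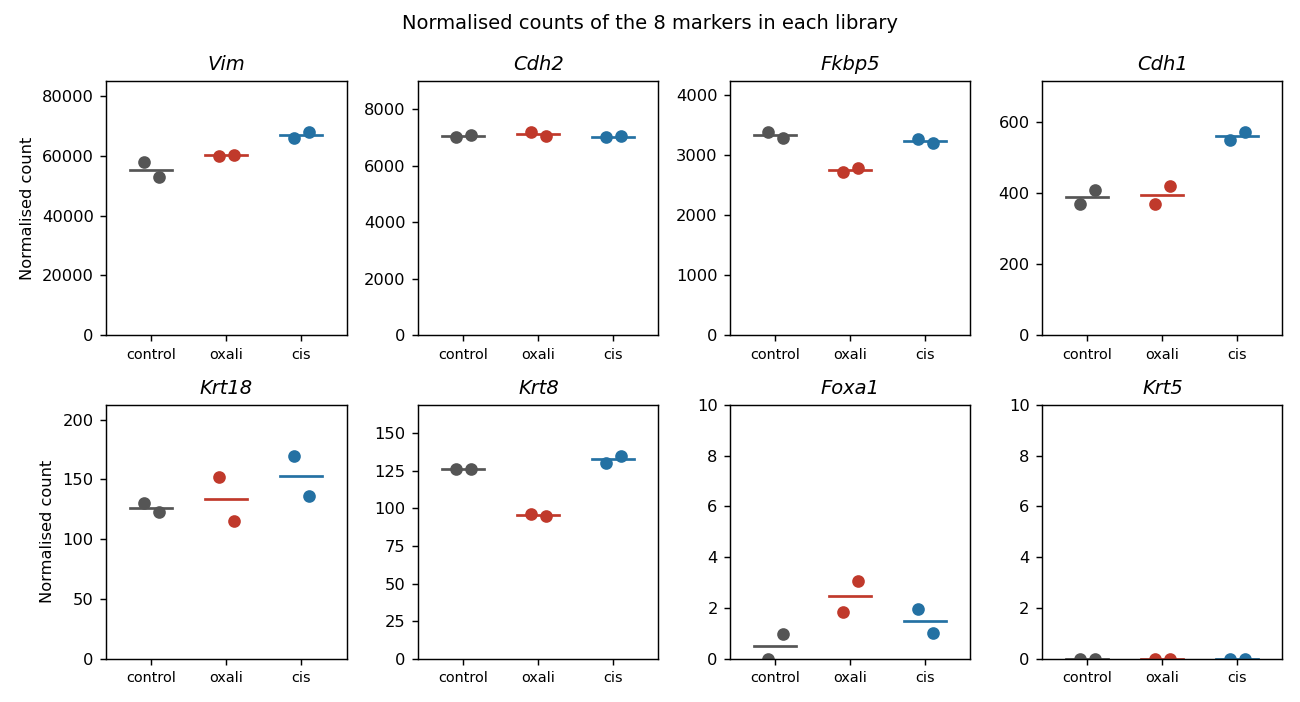
Normalized counts (y axis, linear, from 0) of the 8 markers in each library of control, oxaliplatin (oxali) and cisplatin (cis) cells. Points are libraries and lines are group means of 2 libraries. Fkbp5 and Krt8 are lowest under oxaliplatin, Vim and Cdh1 highest under cisplatin, Cdh2 is level, and Foxa1 and Krt5 stay at or near 0.

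Fkbp5 (ENSMUSG00000024222, chromosome 17, 28399094 to 28517527, minus strand) encodes a cochaperone of steroid receptors whose gene is itself an androgen and glucocorticoid target. Its normalized counts were 3382 and 3277 in control, 2713 and 2778 in oxaliplatin and 3268 and 3200 in cisplatin libraries. Both oxaliplatin libraries lay below all others, and the control and cisplatin libraries were close to each other. From a control mean of 3329 ± 74.2 (SD, n = 2), Fkbp5 fell to 2746 ± 46.5 under oxaliplatin, with a log2 fold change of -0.28 ± 0.06 (SE) and a DESeq2 adjusted p of 6.72e-06. The cisplatin mean was 3234 ± 48.6, with a log2 fold change of -0.04 and a 95% interval of -0.15 to 0.07 (DESeq2 adjusted p = 0.618). The oxaliplatin call remained under all 15 alternative settings, at log2 fold changes of -0.30 to -0.25 and adjusted p values up to 0.0212.

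Vim (ENSMUSG00000026728, chromosome 2, 13573927 to 13582826, plus strand) encodes the intermediate filament of mesenchymal cells. Its normalized counts were 57900 and 52895 in control, 60002 and 60376 in oxaliplatin and 66090 and 68052 in cisplatin libraries. The 3 groups did not overlap, and the control pair differed more than the pairs under drug. Vim rose from 55397 ± 3539 (SD, n = 2) in control to 67071 ± 1387 under cisplatin, a change of 21.1% with a log2 fold change of 0.28 ± 0.04 (SE) and a DESeq2 adjusted p of 4.72e-09. The oxaliplatin mean was 60189 ± 265, a rise of 8.65% with a log2 fold change of 0.12 ± 0.04 (adjusted p by DESeq2 = 0.0272). The cisplatin call held in 15 of 15 alternatives. The oxaliplatin call was lost with edgeR (adjusted p = 0.0716) and without control 2 (DESeq2 log2 fold change 0.06, adjusted p = 0.290), oxaliplatin 1 (adjusted p = 0.158) or oxaliplatin 2 (adjusted p = 0.201).

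Cdh1 (ENSMUSG00000000303, chromosome 8, 106603351 to 106670246, plus strand) encodes E-cadherin, the adhesion molecule of epithelial junctions. Normalized counts were 369 and 410 in control, 370 and 421 in oxaliplatin and 551 and 573 in cisplatin libraries. Control and oxaliplatin libraries overlapped, and both cisplatin libraries stood above them. Cdh1 rose from 390 ± 28.6 (SD, n = 2) to 562 ± 15.6 under cisplatin, 1.44-fold, with a log2 fold change of 0.53 ± 0.14 (SE) and a DESeq2 adjusted p of 8.62e-04. Under oxaliplatin the mean was 396 ± 35.5 and the log2 fold change 0.02, with a 95% interval of -0.26 to 0.30 (DESeq2 adjusted p = 0.948). The cisplatin call was lost without control 1 (DESeq2 adjusted p = 0.0656) or cisplatin 2 (adjusted p = 0.0788), at log2 fold changes of 0.45 to 0.60 over all alternatives.

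Cdh2 (ENSMUSG00000024304, chromosome 18, 16588877 to 16809246, minus strand) encodes N-cadherin. The libraries held 7028 and 7079 normalized counts in control, 7201 and 7047 in oxaliplatin and 7004 and 7051 in cisplatin cells, so that all groups overlapped. Its log2 fold change was 0.01 under oxaliplatin, with a 95% interval of -0.06 to 0.09, and -0.01 under cisplatin, with an interval of -0.08 to 0.07 (DESeq2 adjusted p = 0.852 and 0.943). The ratio of Cdh2 to Cdh1 per kb ran from 6.98 to 11 over the libraries.

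Krt8 (ENSMUSG00000049382, chromosome 15, 101996698 to 102004482, minus strand) and Krt18 (ENSMUSG00000023043, chromosome 15, 102028180 to 102032027, plus strand) encode the keratin pair of simple epithelia and are near neighbors on the chromosome. Krt8 had 126 and 126 normalized counts in control, 96.5 and 95.1 in oxaliplatin and 130 and 135 in cisplatin libraries. Its oxaliplatin libraries lay below the others, yet the difference from control, a log2 value of -0.39 with a 95% interval of -0.88 to 0.09, did not pass the test (DESeq2 adjusted p = 0.263). edgeR did call Krt8 lower under oxaliplatin than in control (adjusted p = 0.0348). Exons of Krt8 share 101 bases with the antisense lincRNA Gm36026, and whether counting used strand is not given in the sources used here.

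Krt18 had 130 and 123 normalized counts in control, 152 and 115 in oxaliplatin and 170 and 136 in cisplatin libraries. The pairs under drug spread more widely than the control pair, with SDs of 26.6 and 23.7 against 4.64. The log2 fold change was 0.08 under oxaliplatin (95% interval -0.43 to 0.59) and 0.27 under cisplatin (-0.23 to 0.78), and neither passed the test (DESeq2 adjusted p = 0.875 and 0.459). Leaving out oxaliplatin 1 turned the oxaliplatin value to -0.14.

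Against all tested genes the members were called at these rates. In oxaliplatin against control 2 members were called, Vim higher and Fkbp5 lower, where DESeq2 called 20.2% of all tested genes, 10.7% higher and 9.50% lower. In cisplatin against control 2 members were called, both higher, with 28.1% of all genes called, 15.7% higher and 12.4% lower. In oxaliplatin against cisplatin 3 members were called, all lower, with 19.9% of all genes called, 8.62% higher and 11.3% lower. Members that passed the filter are few, and nothing particular to them follows from these counts. Total-count scaling changed the split of all calls to 1478 higher and 1565 lower in oxaliplatin against control, to 1824 higher and 2376 lower in cisplatin against control, and to 1622 higher and 1364 lower in oxaliplatin against cisplatin, while the members called stayed at 2, 2 and 3. The median log2 fold change over all tested genes was -0.00 in each comparison.

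**Figure D3:**
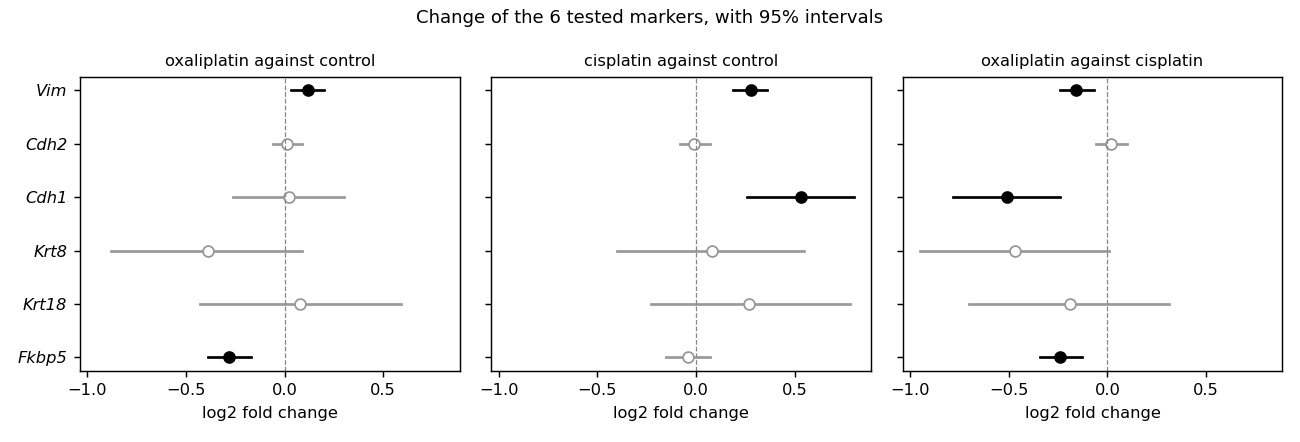
Log2 fold changes (x axis) of the 6 tested markers with 95% intervals in the 3 comparisons. Filled black points passed a DESeq2 adjusted p of 0.05 and open gray points did not. Fkbp5 and Vim were called under oxaliplatin, Cdh1 and Vim under cisplatin, and Fkbp5, Cdh1 and Vim between the drugs.

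Oxaliplatin and cisplatin, the 1 pair of related compounds, were compared directly at 2 µM and 24 h. Both are platinum drugs, and oxaliplatin carries a diaminocyclohexane and an oxalate ligand where cisplatin has ammine and chloride ligands. Each drug comparison above uses the same control libraries, whereas this one does not use them as a reference. Fkbp5 was lower under oxaliplatin than under cisplatin by a log2 value of -0.24 ± 0.06 (SE, DESeq2 adjusted p = 1.98e-04). Cdh1 was lower by -0.51 ± 0.14 (adjusted p = 0.00179) and Vim by -0.16 ± 0.04 (adjusted p = 0.00244). Krt8, with a log2 value of -0.47 and a 95% interval of -0.95 to 0.01, did not pass (DESeq2 adjusted p = 0.158; edgeR adjusted p = 0.0165). Cdh2 gave 0.02 with an interval of -0.06 to 0.10, and Krt18 gave -0.19 with an interval of -0.70 to 0.31, and neither passed (DESeq2 adjusted p = 0.780 and 0.646). Without oxaliplatin 1 none of the 3 DESeq2 calls passed (adjusted p = 0.0744 for Fkbp5, 0.179 for Cdh1 and 0.0629 for Vim). The Fkbp5 call was also lost without cisplatin 1 (0.0588), the Cdh1 call without cisplatin 1 (0.0695) or cisplatin 2 (0.111), and the Vim call without cisplatin 2 (0.0747).

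Genes around Fkbp5 in androgen signaling moved in both directions. Of 29 androgen-response genes 22 were tested. Under oxaliplatin 3 rose and 4 fell, with a median log2 fold change of -0.02, and under cisplatin 6 rose and 3 fell, with a median of -0.00. With total-count scaling the cisplatin split was 5 and 5. The TGFβ-responsive gene Pmepa1 rose under oxaliplatin (0.41, DESeq2 adjusted p = 1.52e-05). Ndrg1, a stress and hypoxia gene, and the fatty acid elongase gene Elovl5 rose under cisplatin (0.46 and 0.35, DESeq2 adjusted p = 1.03e-09 and 2.06e-08). Sat1, an enzyme of polyamine breakdown, rose under both drugs (0.43 and 0.44, DESeq2 adjusted p = 1.54e-05 and 8.90e-06), and the difference between the drugs, -0.01, had a 95% interval of -0.18 to 0.16.

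Chaperones of steroid receptors moved in both directions. All 12 listed genes were tested. Under oxaliplatin 5 rose and 2 fell, Fkbp5 and the constitutive heat shock protein gene Hspa8, with a median of -0.00, and under cisplatin 6 rose and 1 fell, with a median of 0.15. Hsp90aa1, the inducible HSP90 that holds the receptor ready for hormone, rose by 0.33 and 0.51 on the log2 scale (adjusted p by DESeq2 = 2.96e-17 and 5.34e-43). The immunophilin gene Ppid rose by 0.38 and 0.17 (DESeq2 adjusted p = 1.38e-10 and 0.0120). The cochaperone genes Stip1 and St13 rose by 0.21 and 0.18 under oxaliplatin and by 0.20 and 0.40 under cisplatin, with DESeq2 adjusted p values of at most 6.52e-05. Hspa8 fell by 0.21 and 0.12 (DESeq2 adjusted p = 5.08e-10 and 6.58e-04). Under cisplatin the Ppid call was lost whichever of the 6 libraries was left out and the Hspa8 call without cisplatin 1, and under oxaliplatin the St13 call was lost without oxaliplatin 2.

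Fkbp5 is also a glucocorticoid target, and the list of that receptor and of shared steroid targets held 12 genes, all tested. Under oxaliplatin 3 rose and 2 fell (median -0.05), and under cisplatin 4 rose (median 0.12). Sgk1, a kinase of salt balance, rose under both drugs (0.55 and 0.61, DESeq2 adjusted p = 7.87e-14 and 5.67e-17), as did the phosphatase gene Dusp1 (0.74 and 1.09, adjusted p = 5.73e-08 and 4.60e-17). Ddit4, an inhibitor of mTOR signaling, fell by 0.32 under oxaliplatin and rose by 0.63 under cisplatin (DESeq2 adjusted p = 6.13e-05 and 5.47e-19). The receptor gene Nr3c1 rose under oxaliplatin (0.19, DESeq2 adjusted p = 0.0205) and gave 0.09 under cisplatin (adjusted p = 0.337). The Nr3c1 call was lost in 5 of 6 fits that left out a library, all but the one without control 2.

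Transcription factors of prostate and luminal cells were mostly too low to test. Of 19 listed genes, 10 did not pass the filter, Foxa1 among them. Gata3, a luminal factor, had 64.3 and 61.1 normalized counts in control, 149 and 154 in oxaliplatin and 168 and 161 in cisplatin libraries, so that both drug groups stood clear of control. It rose by 1.27 ± 0.25 and 1.39 ± 0.25 on the log2 scale (adjusted p by DESeq2 = 7.78e-06 and 5.27e-07) and was the only listed factor called under oxaliplatin (median of the 9 tested 0.10). Under cisplatin 3 rose and 1 fell, with a median of 0.64. The epithelial factor gene Klf5 rose by 0.76 (DESeq2 adjusted p = 3.94e-06), and Hoxa13, a patterning gene of the urogenital tract, fell by 0.91 (adjusted p = 1.02e-04). Without control 1 or oxaliplatin 1, DESeq2 gave Gata3 no adjusted p under oxaliplatin.

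Among 5 luminal keratins 4 were tested. Under oxaliplatin DESeq2 called 0 of them, 0 had an unadjusted p under 0.05, and edgeR called 1, Krt8, with a list median of 0.06. Under cisplatin Krt19 rose, from 2229 and 1932 normalized counts in control to 2578 and 2497, by 0.29 ± 0.08 on the log2 scale (adjusted p by DESeq2 = 0.00175, list median 0.18). Of 15 basal genes 10 were tested. Under oxaliplatin 3 rose (Krt14, Lamb3 and Nrg1) and under cisplatin 2 rose and 2 fell, with medians of -0.02 and 0.36. Lamb3, a chain of basement membrane laminin, rose by 0.96 and 0.99 (DESeq2 adjusted p = 0.0110 and 0.00651). Krt14 rose under oxaliplatin by 0.68 (DESeq2 adjusted p = 0.0408). Its reads were divided with those of Krt16, since values of both were not whole while their sums were, from 85 to 168 expected counts per library. The Krt19 call was lost without control 2 or cisplatin 1. Leaving out any 1 library ended all 3 basal calls under oxaliplatin and the Nrg1 call under cisplatin, and the Lamb3 call under cisplatin was lost without control 1, cisplatin 1 or cisplatin 2.

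Junction genes that work with Cdh1 were called under both drugs. Of 29 epithelial junction genes 17 did not pass the filter, Epcam, Ocln and Esrp1 among them. Of the 12 tested, 2 rose under oxaliplatin (median 0.03; 1 with total-count scaling), and under cisplatin 6 rose and 1 fell (median 0.26). These were 16.7% and 58.3% of the tested junction genes, beside 20.2% and 28.1% of all genes, and the difference between the drugs in this share was not tested. The tight junction gene Cgn had 301 and 282 normalized counts in control, 379 and 369 in oxaliplatin and 509 and 536 in cisplatin libraries, with no overlap between groups. Cgn rose by 0.36 and 0.84 on the log2 scale (adjusted p by DESeq2 = 0.0455 and 2.66e-08), more under cisplatin (oxaliplatin minus cisplatin -0.48, adjusted p = 0.00277). F11r, a tight junction adhesion molecule, and the desmosome gene Pkp1 rose under cisplatin by 0.30 and 1.13 (DESeq2 adjusted p = 3.74e-06 and 0.00469). The desmosome gene Pkp2 instead rose under oxaliplatin, by 0.60 (DESeq2 adjusted p = 4.41e-06), and gave 0.13 under cisplatin (adjusted p = 0.456). Leaving out 1 library in turn left 1 junction gene called under oxaliplatin, where the Cgn call was lost in every case, and 2 to 5 under cisplatin. The Pkp1 call and the Cgn difference between the drugs were lost without any 1 of the 4 libraries compared.

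Of 18 cadherin and catenin genes 14 were tested, and 2 rose and 2 fell under oxaliplatin, whereas 4 rose and 2 fell under cisplatin, both with a median of 0.02. With total-count scaling the cisplatin split was 2 and 2. Cdh3, the most abundant cadherin, had 8743 and 8695 normalized counts in control, 9138 and 9152 in oxaliplatin and 6523 and 6615 in cisplatin libraries. The cisplatin libraries lay lowest, opposite to Cdh1. Cdh3 fell by 0.41 ± 0.04 on the log2 scale (adjusted p by DESeq2 = 2.62e-25). The catenin genes Ctnna1 and Ctnnb1, which link cadherins to actin, rose under cisplatin by 0.23 and 0.11 (DESeq2 adjusted p = 2.36e-10 and 0.00463). Under oxaliplatin Ctnnd1, the catenin that stabilizes cadherins at the membrane, fell by 0.24 (adjusted p = 6.19e-06), and vinculin (Vcl) rose by 0.32 (adjusted p = 1.59e-13). The plakoglobin gene Jup rose under cisplatin by 0.19 (DESeq2 adjusted p = 0.0254). The Jup call was lost in 5 of 6 fits that left out a library, all but the one without control 1, and the Ctnnb1 call without control 1, cisplatin 1 or cisplatin 2. Without oxaliplatin 1 the list held 2 calls under oxaliplatin, and without cisplatin 2 it held 3 under cisplatin.

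**Figure D4:**
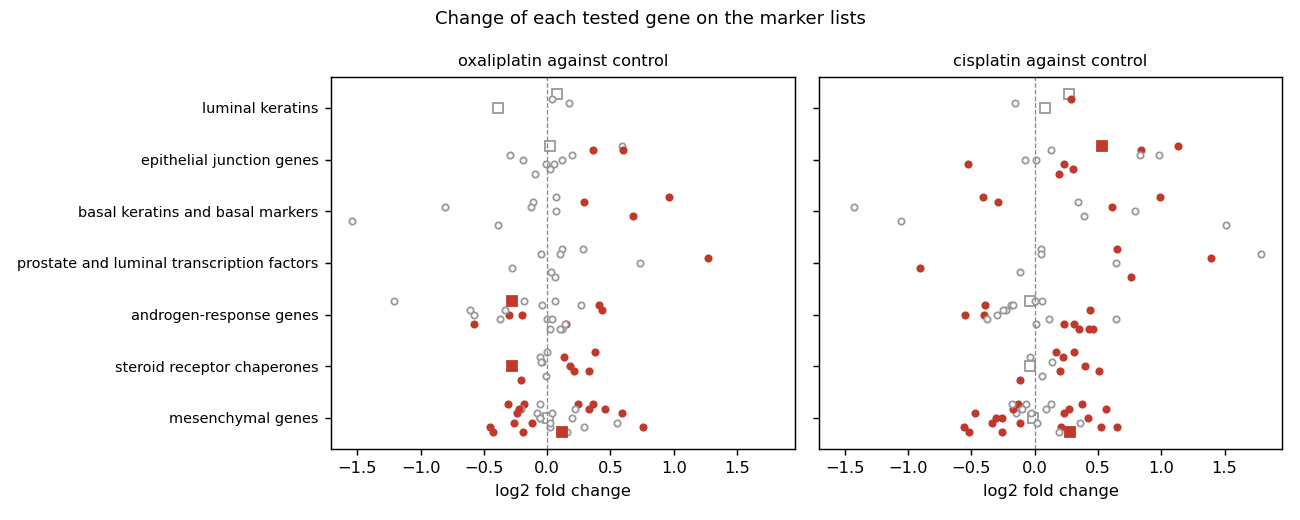
Log2 fold change (x axis) of each tested gene on 7 marker lists (rows), in oxaliplatin against control and in cisplatin against control. Red filled symbols passed a DESeq2 adjusted p of 0.05, open gray symbols did not, and squares are members of the 8 markers. Vim and Fkbp5 are the called squares under oxaliplatin, Vim and Cdh1 under cisplatin, and called genes lie on both sides of 0 in the mesenchymal row.

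Genes of the mesenchymal list moved both ways, although Vim rose under both drugs, under oxaliplatin with a call that some alternative fits lost. All 30 genes were tested. Under oxaliplatin 7 rose and 9 fell (median 0.02), and under cisplatin 9 rose and 10 fell (median -0.02). The collagen gene Col1a2 fell by 0.45 and 0.56 on the log2 scale, and Lox, which crosslinks collagen, fell by 0.43 and 0.52, with DESeq2 adjusted p values of at most 3.28e-49. The smooth muscle gene Tagln rose by 0.59 and 0.23 (DESeq2 adjusted p = 4.60e-40 and 1.73e-06). The summed level of the list was 619475 to 633015 normalized counts in control, 556313 to 567091 in oxaliplatin and 531323 to 542813 in cisplatin libraries. Leaving out 1 library in turn left 11 to 14 and 17 to 18 calls.

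Repressors of Cdh1 did not move as 1 group. Zeb2 had 664 and 727 normalized counts in control, 813 and 810 in oxaliplatin and 1006 and 1044 in cisplatin libraries. It rose under cisplatin, where Cdh1 rose too, by 0.56 ± 0.10 (DESeq2 adjusted p = 3.08e-07), and gave 0.22 under oxaliplatin (adjusted p = 0.0922). Snai2 rose by 0.24 and 0.37 (adjusted p = 0.0323 and 3.18e-04). Zeb1 gave -0.06 and -0.18, Snai1 0.16 and 0.19 and Twist1 0.02 and 0.02, and these 3 did not pass (DESeq2 adjusted p from 0.0599 to 0.949). The oxaliplatin call of Snai2 was lost whichever library was left out, and its cisplatin call without cisplatin 2.

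Among 18 genes of intermediate filaments and their linkers 16 were tested. Under oxaliplatin 2 rose, Vim and the cytolinker gene Ppl, and Lmnb1 of the nuclear lamina fell (median 0.07), whereas edgeR called 2 higher and 3 lower. Under cisplatin 4 rose and 1 fell (median 0.18). Nestin (Nes), which assembles with vimentin, had 868 and 921 normalized counts in control, 1044 and 1020 in oxaliplatin and 1610 and 1608 in cisplatin libraries. It rose by 0.85 ± 0.08 under cisplatin (DESeq2 adjusted p = 3.03e-22), and its difference between the drugs was -0.64 (adjusted p = 4.10e-13). Syne3, a nuclear envelope linker to the cytoskeleton, fell by 0.37 under cisplatin (DESeq2 adjusted p = 1.29e-04). The Lmnb1 call was lost without control 2, oxaliplatin 1 or oxaliplatin 2.

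Between the drugs the lists were called as follows, always oxaliplatin against cisplatin and with DESeq2. Androgen-response genes were higher in 4 and lower in 5 cases (median -0.14), and total-count scaling gave 5 and 4. Of the chaperones 1 was higher, Ppid, and 7 were lower (median -0.09), and of the shared steroid targets 4 were lower (median -0.20), Fkbp5, Dusp1, Cdkn1a and Ddit4. In the junction list 2 were higher and 5 lower (median -0.28), Cdh1 and its partner Jup among the lower ones. Luminal keratins held 1 lower gene, Krt19 (median -0.22), basal genes 2 higher and 1 lower (median -0.24), and the luminal factors 1 higher and 1 lower (median 0.05). Cadherin and catenin genes gave 4 higher and 5 lower (median -0.04), with 5 and 5 under total-count scaling, mesenchymal genes 8 higher and 4 lower (median 0.01) and intermediate filament genes 3 of each (median -0.21). In the mesenchymal list Vim and Zeb2 were lower under oxaliplatin, while Tagln was higher (0.36, DESeq2 adjusted p = 2.16e-15). Leaving out 1 library in turn gave 0 to 1 calls for luminal keratins, 1 to 2 for the luminal factors, 4 to 5 for androgen-response genes, 3 to 8 for chaperones, 1 to 5 for shared steroid targets, 1 to 6 for junction genes, 5 to 9 for cadherin and catenin genes, 6 to 14 for mesenchymal genes and 3 to 6 for intermediate filament genes. The Krt19 and Zeb2 differences between the drugs were lost without any 1 of the 4 libraries compared.

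Markers of leukocytes and endothelium had low counts, whereas the neuroendocrine list held 1 gene at a higher level. The 10 neuroendocrine markers summed to 1872 to 1918 normalized counts in control, 2219 to 2269 in oxaliplatin and 1717 to 1754 in cisplatin libraries. Of these 3 were tested, and Chga did not pass the filter. Most of the sum came from Ncam1, a neural adhesion gene, whose mean level of 206 per kb lay above Cdh1, Krt18 and Krt8. Under oxaliplatin Ncam1 rose by 0.25 (DESeq2 adjusted p = 0.00160, list median 0.24), and under cisplatin DESeq2 called 0 of 3, 1 had an unadjusted p under 0.05 and edgeR called 1 (list median -0.14). The 10 leukocyte markers summed to 51.5 to 57.0 normalized counts in control, 41.8 to 47.1 in oxaliplatin and 72.5 to 74.7 in cisplatin libraries. Of these, 2 were tested, and DESeq2, edgeR and an unadjusted p under 0.05 each gave 0 in every comparison (medians -0.37 and 0.37 under oxaliplatin and cisplatin). The 6 endothelial markers summed to 27.6 to 30.1 in control, 54.2 to 65.0 in oxaliplatin and 57.3 to 75.5 in cisplatin libraries. The receptor gene Kdr, the only tested one, rose by 1.20 and 1.31 (DESeq2 adjusted p = 0.0259 and 0.0109), while Pecam1 and Cdh5 did not pass the filter. Both Kdr calls were lost whichever library was left out, and the Ncam1 call without control 1, oxaliplatin 1 or oxaliplatin 2. The part of such cells in the changes of the 8 markers was not tested.

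The genes most alike to each called member were found by Pearson correlation of log2 normalized counts over the 6 libraries among 10731 abundant genes, as a description. The closest to Fkbp5 were the sterol isomerase gene Ebp (r = 0.998), the protein disulfide isomerase gene P4hb (0.998) and the cargo receptor gene Surf4 (0.997). Surf4, for example, had 12549 and 12148 normalized counts in control, 8931 and 9130 in oxaliplatin and 11853 and 11774 in cisplatin libraries, lowest under oxaliplatin as Fkbp5 was. The closest to Cdh1 were Galns (0.997), Kdsr (0.996) and Ss18 (0.996). The closest to Vim were Dusp8 (1.000), Id1 (0.997) and Tmcc3 (0.996). With only 6 libraries in 3 groups such values come easily, and 272, 191 and 276 genes had an r over 0.95 with Fkbp5, Cdh1 and Vim.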

How the data were processed

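Poly(A) RNA from TRAMP-C2 cells was sequenced after preparation with a stranded mRNA kit. The authors deposited expected counts per gene, a unit in which RSEM divides reads among genes and which is not scaled between libraries. The submitters' processing notes name STAR 2.5.3a, RSEM 1.3.0 and GRCm38.p6, whereas the methods of the study name a different program for counting in vitro RNA-seq. The annotation release of the table is not given in the sources used here. Of 54446 identifiers 54409 matched GENCODE M21.

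Expected counts were rounded, and only genes that reached 10 counts in 2 or more libraries were tested. DESeq2 1.42.0 (R 4.3.3) was fitted to all 6 libraries with group as factor. It used median-of-ratios scaling (size factors of 0.964 to 1.08), two-sided Wald tests, unshrunken log2 fold changes and Benjamini-Hochberg adjustment over all genes tested, at a threshold of 0.05. Low means left 2900, 1740 and 2900 genes without an adjusted p, which count as not called. Division by the size factor gave normalized counts, and merged exons of GENCODE M21 gave lengths. Fits were tested on simulated data in which 200 genes were changed. In oxaliplatin against control, cisplatin against control and oxaliplatin against cisplatin, DESeq2 recovered 89.5, 92.5 and 99.5% of them and edgeR 90.5, 91 and 99%. The share of calls that were false was 10.1, 7.96 and 7.87% with DESeq2 and 9.95, 14.2 and 12.4% with edgeR. Each share exceeded the nominal rate set by the threshold of 0.05, so calls with an adjusted p near it are less certain. Alternatives were edgeR 4.0.16, other scalings and filters, a replicate block, fits of 4 libraries and leaving out each library.

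The 8 markers and the 13 gene lists, written by hand from general knowledge, were chosen with earlier results of these data known, and several genes are on more than 1 list. From each list the 3 genes with the smallest adjusted p per drug were named, beside the members and 15 genes always named. Some listed genes are counted but not reported here by name, and the window before the Krt8 start is left out.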

Additional observations from a re-analysis of the deposited data

How the results depend on the processing

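With 2 libraries per group, counts of calls moved with the test more than with the scaling. edgeR called 4618 genes in oxaliplatin against control and 4773 between the drugs, beside 3028 and 2977 with DESeq2. A replicate block, in libraries that share a number but were not shown to be paired, left 1958, 2833 and 1861 genes in oxaliplatin against control, cisplatin against control and oxaliplatin against cisplatin. Deviations of same-numbered libraries from their group means had an r of 0.0718 between control and oxaliplatin, -0.0479 between control and cisplatin and -0.177 between the drugs (across 10732 genes, which are not independent), and crossing the cisplatin numbers, chosen after seeing the data, gave 1810, 2647 and 1704. The block and the crossed block called the same numbers of the 8 markers, 2, 2 and 3. Leaving out each library gave 1213 to 2159, 2089 to 3021 and 1184 to 2453 genes, and 1 to 2, 1 to 2 and 0 to 3 of the 8 markers. Of 39 counts of called genes on the lists, 23 moved by over 1.5 times when some library was left out. The calls that edgeR or a left-out library ended, for Vim, Cdh1 and Fkbp5, stand beside their results, and the cause was not tested. Direction turned only where nothing was called. Over left-out libraries Cdh1 under oxaliplatin ran from -0.074 (without oxaliplatin 2, and -0.050 without control 1) to 0.108, Krt18 under oxaliplatin from -0.143 (without oxaliplatin 1) to 0.268, Cdh2 under oxaliplatin from -0.003 (without oxaliplatin 1) to 0.029 and Cdh2 under cisplatin from -0.012 to 0.001 (without cisplatin 1). Levels per kb rose with mean transcript length as divisor, to 1768 for Fkbp5, 160 for Cdh1, 1770 for Cdh2 and 40904 for Vim. Depth limits Foxa1 and Krt5, which 3 counts would not separate from 0.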
